A study of Mus musculus with 12 samples.

Results

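Acyl-CoA thioesterases cut fatty acyl-CoA and other CoA esters into a free acid and CoA. The 9 genes described here are Acot1, Acot2, Acot3, Acot4, Acot7, Acot8, Acot9, Acot12 and Acot13, chosen by gene symbol from the 41325 genes listed for mouse liver. All 9 had enough reads to be tested, among 16456 tested genes. Liver RNA came from 12 wild-type (WT) C57BL/6J mice in 3 groups of 4. Control mice were given vehicle. NASH vehicle mice carried nonalcoholic steatohepatitis, a fatty and inflamed liver disease, brought on by a diet labelled CDAHFD, and were given vehicle. NASH CDDO-Me mice had the same diet-induced disease and were given CDDO-Me (bardoxolone methyl), an activator of the transcription factor NRF2, at 10 mg/kg by mouth for 8 weeks. The labels give no age or sex, and no animals on the control diet were given CDDO-Me, so the effect of the compound was measured in diseased livers only.

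Thioesterases work against the acyl-CoA synthetases, which join fatty acids to CoA, and so help to set how much acyl-CoA, free fatty acid and free CoA each cell compartment holds. In rodent liver several of them are classical targets of PPARalpha, the fatty acid-sensing nuclear receptor. Acot1, Acot7 and Acot12 encode enzymes of the cytosol, Acot2, Acot9 and Acot13 enzymes of mitochondria or their surface, and Acot3, Acot4 and Acot8 enzymes of peroxisomes. Acot1 to Acot6 form a family of close sequence relatives that arose by local duplication.

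That family lies as 6 neighbouring genes within 123.5 kb of chromosome 12 (GRCm38, positions 83987861 to 84111349), and 4 of the members described here sit in it. Acot2 (ENSMUSG00000021226) lies at chr12:83987861-83993873 and Acot1 (ENSMUSG00000072949) at chr12:84009490-84018371, 15.6 kb apart and on the same strand. Acot4 (ENSMUSG00000052392) and Acot3 (ENSMUSG00000021228) follow at chr12:84038379-84048601 and chr12:84052144-84060402. The other members are single genes: Acot7 at chr4:152178134-152271855, Acot8 at chr2:164792765-164804882, Acot9 at chrX:155262443-155297654, Acot12 at chr13:91741512-91786148 and Acot13 at chr13:24817948-24831540.

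Promoters of 8 of the 9 members were matched in RefSeq (GRCm38.p6). Of these, 3 are shown because their genes rose with CDDO-Me and because they hold the closest matches to the elements searched. Chosen on both grounds, these 3 cannot show that rises and matches go together. The first search was for the half-site AGGTCA in direct repeat with 1 base between, the kind of element PPARalpha binds with its partner RXR, on both strands of the 250 bases before and 50 bases after each start site. The second was for TGACNNNGC, the core of the element NRF2 binds, on both strands. Capitals below mark the best direct repeat in Acot12 and Acot4 and the core in Acot3. Only the 250 bases before each start site are printed, 5′ to 3′ on the strand of the gene, for Acot12 (chr13:91741271-91741520, + strand), Acot4 (chr12:84038129-84038378, + strand) and Acot3 (chr12:84051894-84052143, + strand).
Acot12: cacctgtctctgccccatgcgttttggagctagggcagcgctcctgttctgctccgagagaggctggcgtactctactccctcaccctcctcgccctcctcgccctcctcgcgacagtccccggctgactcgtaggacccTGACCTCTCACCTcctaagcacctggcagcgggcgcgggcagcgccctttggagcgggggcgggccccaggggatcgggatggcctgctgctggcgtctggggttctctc
Acot4: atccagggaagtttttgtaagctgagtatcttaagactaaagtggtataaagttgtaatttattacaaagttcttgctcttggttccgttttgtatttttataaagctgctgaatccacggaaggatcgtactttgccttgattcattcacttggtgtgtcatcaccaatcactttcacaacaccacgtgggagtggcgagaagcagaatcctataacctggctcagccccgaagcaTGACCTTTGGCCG
Acot3: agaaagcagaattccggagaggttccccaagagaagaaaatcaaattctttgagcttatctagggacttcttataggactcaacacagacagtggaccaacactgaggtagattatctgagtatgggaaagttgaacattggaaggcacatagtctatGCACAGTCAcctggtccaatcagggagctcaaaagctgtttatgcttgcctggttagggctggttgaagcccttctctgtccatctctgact
The Acot12 repeat, on the opposite strand, starts 110 bases before the start site with 1 mismatch, a match held by 0.554% of 32851 mouse promoters. In Acot4 the repeat, also on the opposite strand, starts 13 bases before the start site with 2 mismatches, a match held by 3.86% of promoters. The best repeats of the other 6 matched members had 3 to 5 mismatches, and 24.6% of promoters hold one with at most 3. Among these 6, Acot1, Acot3 and Acot8 also rose with CDDO-Me, and their best repeats had 4, 3 and 5 mismatches. Acot3 was the only matched member with the NRF2 core, on the opposite strand 92 bases before the first of its 2 start sites, which 12.4% of promoters also hold. These are descriptions of letters in a fixed window and carry no evidence of binding.

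Libraries held 28161057 to 33852338 reads, and expression is given as CPM, counts scaled to a common library size by TMM, which sets libraries level on the bulk of genes. Scaling factors were 0.73 to 0.83 in control livers, 1.11 to 1.306 in NASH vehicle and 0.974 to 1.2 in NASH CDDO-Me. Scaling by library totals instead moved the median of all genes' log2 fold changes to 0.62 for NASH vehicle against control, to -0.16 for CDDO-Me against NASH vehicle and to 0.51 for CDDO-Me against control, so every direction below is relative to the bulk of genes. Of all genes called, 49.6% were higher in NASH vehicle than in control, against 88.2% with library totals and 92.6% with log2(TPM + 1). For CDDO-Me against NASH vehicle the share higher was 56.5%, against 36.8% and 24.6%, and for CDDO-Me against control 52.7%, against 88.5% and 91.6%. Hepatocyte markers were present in every group, with a summed CPM of 98566 to 117697 in control, 38087 to 62254 in NASH vehicle and 39256 to 58816 in NASH CDDO-Me over the 11 of 12 markers listed. Macrophage markers summed to 120 to 207 CPM, 1559 to 2949 CPM and 837 to 1542 CPM in the same order. Control 3 stood apart, with smooth muscle markers at 568 CPM against 100.3 to 121 in the other controls and cholangiocyte markers at 265 CPM against 44.9 to 82.6. In bulk liver, fewer cells of a type and less RNA per cell cannot be told apart. Nothing in the labels says how animals were housed or processed together, and p-values measure only the spread between these livers.

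In NASH vehicle livers 7 of the 9 genes were lower than in control and 2 were higher. The CPM ranges of the groups did not overlap for any of the 9. By TPM the ranges of these groups overlapped for Acot1, Acot3, Acot4, Acot7, Acot12 and Acot13. Acot2, Acot8 and Acot9 did not overlap by TPM, and all of them, Acot8 included, were then higher in NASH vehicle. Acot1 fell 4.34-fold and Acot3 6.21-fold, while Acot2 and Acot9, both mitochondrial, rose 2.73-fold and 3.68-fold. The other 5, among them Acot13 of mitochondria or their surface, lay 1.35-fold to 1.65-fold lower with TMM scaling. That direction turned or was lost with library totals and turned on the TPM scale. Among all tested genes 29.6% were called higher and 30.0% lower, 59.7% in either direction, and 54.4% had no overlap between these groups (27.0% higher and 27.4% lower). The median log2 fold change of the 9 was -0.60, beside -0.01 for all tested genes. A gene is called, here and below, where the p of the two-sided quasi-likelihood test in edgeR, adjusted by Benjamini-Hochberg over all tested genes, was under 0.05.

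With CDDO-Me, 5 of the 9 were higher than in NASH vehicle, 0 were lower and 4 did not pass. The 5 were the cytosolic Acot1 and Acot12 and the 3 peroxisomal genes Acot3, Acot4 and Acot8, with rises of 1.54-fold to 6.5-fold. Among all tested genes 9.39% were called higher and 7.24% lower (16.6% in either direction). The ranges did not overlap for 4 members, all of them higher, beside 21.6% of all genes in either direction and 11.4% in the higher direction. The median log2 fold change was 0.62 over the 9 and -0.01 over all tested genes. The count of 5 fell to 3 without CDDO-Me 2, without NASH vehicle 3 or without NASH vehicle 4, where Acot1 and Acot3 lost their calls. In these 3 fits, as in all the others, Acot4, Acot8 and Acot12 remained called.

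**Figure D1:**
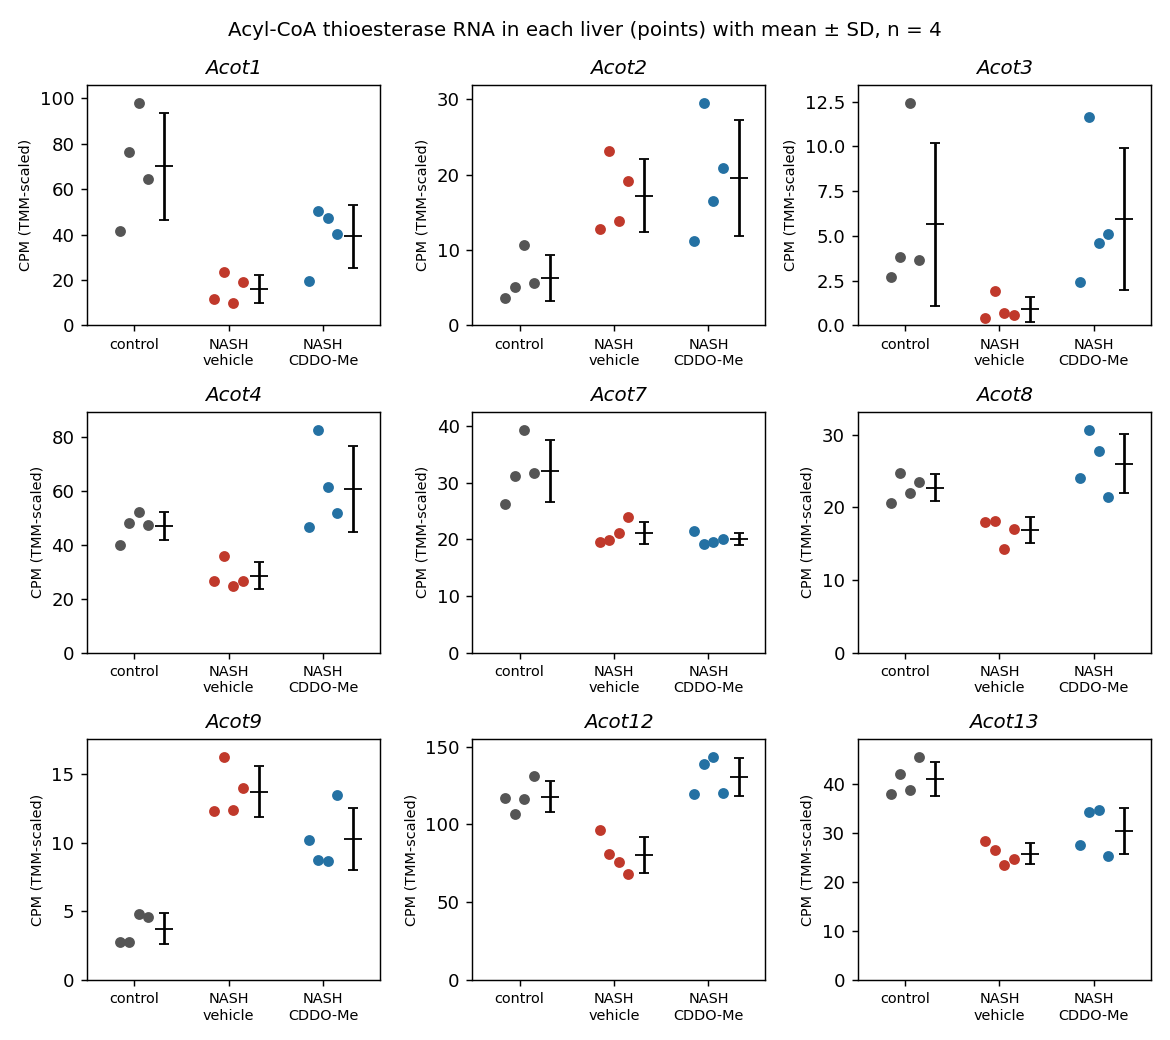
TMM-scaled CPM of the 9 thioesterase genes, 1 panel per gene with its own axis from 0; each point is 1 liver (replicates 1 to 4 from left to right), and the bar beside each group is the mean with SD (n = 4). Acot2 and Acot9 sit higher in both NASH groups than in control, and Acot3, Acot4, Acot8 and Acot12 sit lower in NASH vehicle than in either other group.

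Acot1, a long-chain acyl-CoA thioesterase of the cytosol, was spread widely within each group. Replicates 1 to 4 of the control group had 41.4, 76.4, 98.1 and 64.3 CPM. In NASH vehicle the values were 11.9, 23.5, 10.0 and 19.2 CPM. With CDDO-Me they were 19.6, 50.3, 47.1 and 40.1 CPM. Every NASH vehicle liver lay under every control liver, and with CDDO-Me 3 livers lay above the NASH vehicle range and the first lay within it. Against control, Acot1 in NASH vehicle had a log2 fold change of -2.12 ± 0.37 (SE, adjusted p = 0.00047), and all 24 alternative fits called it lower. The rise with CDDO-Me was 1.28 ± 0.36 on the log2 scale (adjusted p = 0.034) and passed in 14 of 24 alternative fits, whose adjusted p ran from 0.0018 to 0.11. Leaving out 1 library ended the call for CDDO-Me 2, 3 or 4 and for NASH vehicle 1, 3 or 4, with log2 fold changes of 1.11 to 1.38. CDDO-Me against control gave -0.84 ± 0.36 (adjusted p = 0.072), which did not pass, though it did in 4 of 24 alternatives, whose adjusted p ran from 0.017 to 0.58 and whose log2 fold changes ran from -1.02 to -0.23.

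Acot12, which hydrolyses acetyl-CoA in the cytosol, was the most abundant member by reads. Control livers 1 to 4 had 117, 107, 116 and 131 CPM. The NASH vehicle livers had 96.1, 81.2, 76.0 and 68.1 CPM. Those given CDDO-Me had 119.5, 139, 143 and 120.5 CPM. The NASH vehicle livers lay under both other groups with no overlap, while the CDDO-Me and control ranges overlapped. Acot12 rose with CDDO-Me by 0.70 ± 0.11 on the log2 scale (edgeR adjusted p = 0.0011), a call kept in all 24 alternatives with log2 fold changes of 0.50 to 0.80. Its NASH difference was -0.55 ± 0.11 (adjusted p = 0.00084) with TMM scaling, but 0.07 with library totals and 0.21 on the log2(TPM + 1) scale, where it was called higher. Against control, CDDO-Me gave 0.15 ± 0.11 (adjusted p = 0.30).

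Acot7, a long-chain acyl-CoA thioesterase best known from brain, took no part in the rise with CDDO-Me. It ranged from 26.2 to 39.3 CPM in control, with the highest value in control 3, from 19.6 to 23.9 CPM in NASH vehicle and from 19.1 to 21.4 CPM with CDDO-Me. Both NASH groups lay under control without overlap and overlapped each other. With TMM scaling it was lower by -0.60 ± 0.11 in NASH vehicle and by -0.68 ± 0.11 with CDDO-Me against control (edgeR adjusted p = 0.00044 and 0.00026). With library totals the first of these was 0.02 and the second -0.21, and neither passed. CDDO-Me against NASH vehicle gave -0.08 ± 0.11 (adjusted p = 0.70).

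Acot2 encodes the mitochondrial counterpart of Acot1, and its RNA went the other way in disease. Control livers had 3.65, 5.12, 10.7 and 5.68 CPM. In NASH vehicle Acot2 stood at 12.7, 23.1, 13.9 and 19.1 CPM. With CDDO-Me it stood at 11.3, 29.5, 16.5 and 20.8 CPM. The lowest value of either NASH group was above the highest control, which was control 3, and the NASH groups overlapped across most of their ranges. Acot2 was higher in NASH vehicle than in control by 1.45 ± 0.36 on the log2 scale (adjusted p = 0.0041) and with CDDO-Me by 1.63 ± 0.36 (adjusted p = 0.0027). Both calls were kept in all 24 alternatives, and without control 3 they were 1.84 and 2.02. CDDO-Me against NASH vehicle gave 0.18 ± 0.34 (adjusted p = 0.77), and the sign turned on the TPM scale and without CDDO-Me 2.

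The ratio of Acot2 to Acot1 within a liver does not depend on how libraries are scaled. By TPM, which divides exon reads by the annotated exon length of the gene, it was 0.155, 0.119, 0.191 and 0.160 in control livers 1 to 4. In NASH vehicle it was 1.88, 1.75, 2.41 and 1.78. With CDDO-Me it was 1.02, 1.01, 0.601 and 0.920. By TPM, Acot1 thus exceeded Acot2 in every control liver and Acot2 exceeded Acot1 in every NASH vehicle liver. The CDDO-Me livers lay between with no overlap of the 3 ranges. Counted on uniquely mapped reads without division by length, the ratio was 0.070 to 0.112, 0.980 to 1.35 and 0.355 to 0.597 in the same order. On that count it was just under 1 in NASH vehicle 2 (0.980) and NASH vehicle 4 (0.997). Which gene is the higher in NASH vehicle thus rests on the annotated lengths, 3919 bases for Acot1 and 2196 for Acot2. The pair was singled out after its values were seen, so these ratios are given without a test.

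**Figure D2:**
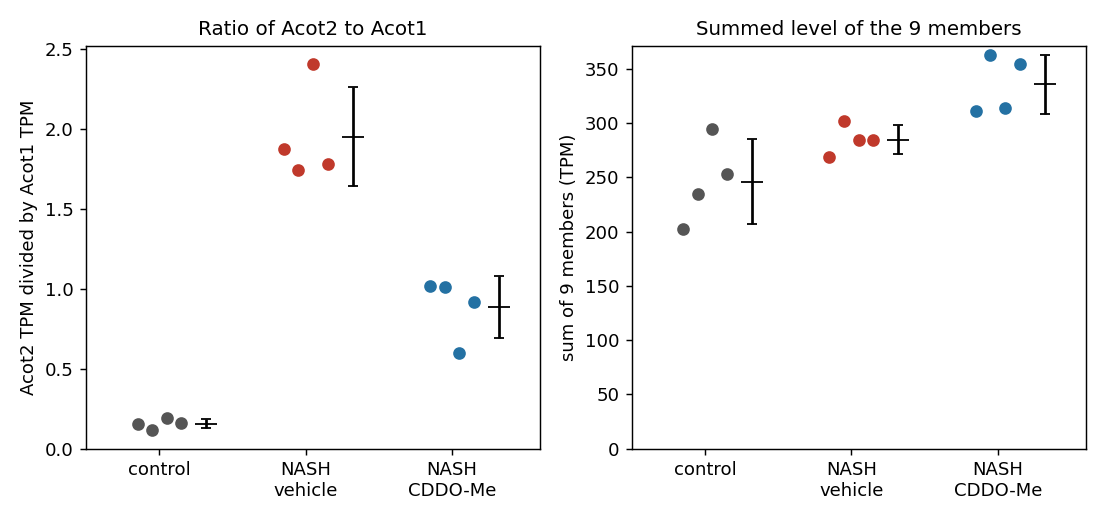
Left, Acot2 TPM divided by Acot1 TPM; right, the summed TPM of the 9 genes; each point is 1 liver, bars are mean ± SD (n = 4) and both axes start at 0. The ratio is under 0.2 in every control liver and over 1.7 in every NASH vehicle liver, with the CDDO-Me livers between. The sums are on the TPM scale, where most genes called against control were higher in both NASH groups.

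Acot9 encodes a mitochondrial thioesterase with a broad range of acyl-CoA substrates and had the larger of the 2 rises in disease. Control livers had 2.73, 2.77, 4.81 and 4.61 CPM. The NASH vehicle livers had 12.3, 16.3, 12.4 and 14 CPM. With CDDO-Me the values were 10.2, 8.74, 8.65 and 13.5 CPM. Both NASH groups lay above control without overlap, and the CDDO-Me livers lay lower than or within the NASH vehicle range. Acot9 was higher in NASH vehicle by 1.88 ± 0.22 on the log2 scale (adjusted p = 7.5e-06) and with CDDO-Me by 1.46 ± 0.21 against control (adjusted p = 9.2e-05), and all 24 alternatives kept both calls. CDDO-Me against NASH vehicle gave -0.42 ± 0.20 (adjusted p = 0.18), which passed in none of the 24 alternatives. All 10 macrophage markers rose in NASH vehicle against control, and 7 fell with CDDO-Me, where Acot9 itself did not pass. Their medians were 3.52 and -1.16 on the log2 scale, and no marker was at 0 in a whole group. Stellate and fibroblast markers moved the same way: 7 of 8 rose in NASH vehicle and 5 fell with CDDO-Me, with medians of 1.94 and -0.54, and their summed CPM was 247 to 418 in control, 1556 to 2304 in NASH vehicle and 758 to 1366 with CDDO-Me. Of 6 cholangiocyte markers, 4 rose in NASH vehicle and 1 fell with CDDO-Me. All 6 dividing cell markers rose in NASH vehicle, and with CDDO-Me 0 rose and 0 fell. Of 6 T and NK cell markers, 5 rose in NASH vehicle and 2 fell with CDDO-Me. Among all tested genes 29.6% were called higher in NASH vehicle and 7.24% lower with CDDO-Me. The part of any of these cell types in the Acot9 values was not tested. The 3 genes whose log2 CPM followed Acot9 most closely over the 12 livers were Gyg, Arl11 and Ppp1r18 (Pearson r of 0.992, 0.990 and 0.989 among 13756 genes compared).

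**Figure D3:**
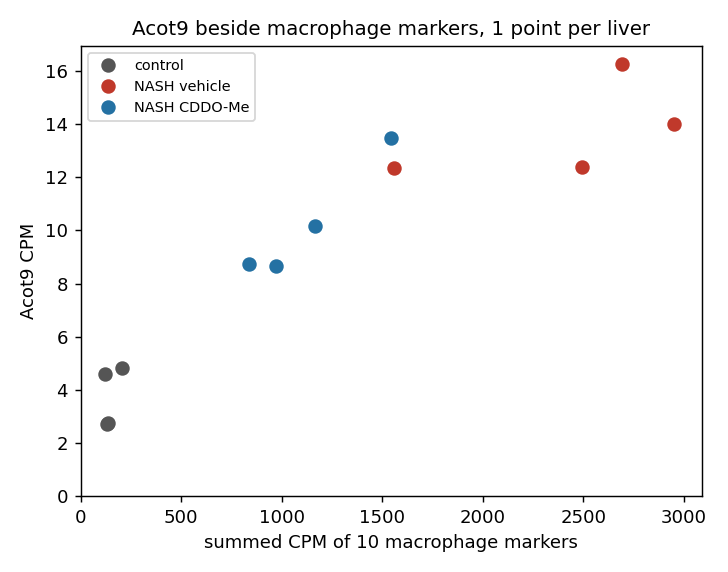
Acot9 CPM (vertical axis) against the summed CPM of 10 macrophage markers (horizontal axis), 1 point per liver, both axes from 0. The 4 control livers lie at the lower left with markers of 120 to 207 CPM, and the CDDO-Me livers lie between them and the NASH vehicle livers in markers. Other marker lists that rose in NASH vehicle are not plotted.

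Acot13, also called Them2, is a thioesterase found at mitochondria that binds phosphatidylcholine transfer protein, the product of Pctp. Its CPM ran from 38.0 to 45.5 in control, from 23.4 to 28.3 in NASH vehicle and from 25.3 to 34.6 with CDDO-Me. Both NASH groups lay under control and overlapped each other. The difference from control was -0.67 ± 0.11 in NASH vehicle and -0.43 ± 0.11 with CDDO-Me on the log2 scale (edgeR adjusted p = 0.00015 and 0.0052) with TMM scaling. On the TPM scale both turned to 0.14 and did not pass, and with library totals they were -0.05 and 0.03. By TPM the gene was close to level over all 12 livers, from 82.8 to 108. Pctp itself was at 78.8 ± 10.0 CPM in NASH vehicle and 163 ± 32.1 CPM with CDDO-Me (SD, n = 4), a rise of 1.05 ± 0.16 on the log2 scale (adjusted p = 0.00092) that passed under all 4 other scalings run. For Acot13 the same comparison gave 0.24 ± 0.11 (adjusted p = 0.16).

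Among the peroxisomal genes, Acot4, which cleaves succinyl-CoA and other dicarboxylyl-CoA esters, had the lowest adjusted p with CDDO-Me. Control livers had 39.9, 48.2, 52.2 and 47.5 CPM. The NASH vehicle livers had 26.6, 35.9, 24.7 and 26.8 CPM. With CDDO-Me the values were 46.6, 82.7, 61.4 and 51.8 CPM. NASH vehicle lay under both other groups without overlap, and CDDO-Me 2 was the highest liver. Acot4 rose with CDDO-Me by 1.09 ± 0.17 on the log2 scale (adjusted p = 0.001), and all 24 alternatives kept the call with 0.81 to 1.22. In NASH vehicle it was lower than control by -0.72 ± 0.17 (adjusted p = 0.0026) with TMM scaling, -0.10 with library totals and 0.10 on the log2(TPM + 1) scale. CDDO-Me against control gave 0.37 ± 0.17 (adjusted p = 0.087), and it passed in 6 of 24 alternatives, which ran from 0.17 to 0.97 in log2 fold change.

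Only 13.1% of Acot4 reads mapped uniquely, so its total includes reads that fit a further place in the genome. Of the stretches of 75 bases in its transcripts, the sequencing read length, 9.9% also occur in transcripts of another gene, mostly 4732463B04Rik, an antisense gene that overlaps it and had 313 reads in all livers against 16370 for Acot4. On unique reads alone Acot4 was -0.64 in NASH vehicle (adjusted p = 0.033) and 0.88 with CDDO-Me (adjusted p = 0.023), within alternative ranges of 0.00047 to 0.58 and 5.3e-07 to 0.023. Its reads are therefore reported as uncertain in level. Acot1 and Acot2 share 434 such stretches, which are 11.2% of Acot1 and 20.5% of Acot2, and 89.0% and 90.5% of their reads were unique. Acot8 overlaps Snx21 on the opposite strand, which had 4744 reads in all livers against 7962 for Acot8. Of the 75 base stretches of Acot8, 8.44% also occur in Snx21. Acot12 overlaps the antisense gene 4833422C13Rik, which had 1177 reads against 39868 for Acot12. The strand setting of the counts was not given, so how far reads of such overlapping genes were kept apart is not known. Acot7 and Acot13 share no such stretch with another gene.

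Acot3, a peroxisomal long-chain thioesterase, was the least abundant of the 4 cluster genes described here and varied most between livers of a group, relative to its mean. Control livers had 2.69, 3.83, 12.4 and 3.67 CPM. The NASH vehicle livers had 0.417, 1.95, 0.687 and 0.583 CPM, from 14 to 71 reads each. With CDDO-Me the values were 2.45, 11.6, 4.6 and 5.13 CPM. NASH vehicle lay under both other groups, control 3 stood far above the other controls, and CDDO-Me 2 stood far above the other treated livers. Acot3 was lower in NASH vehicle than in control by -2.63 ± 0.66 on the log2 scale (adjusted p = 0.0045), and 23 of 24 alternatives called it lower. The size varied widely: it was -1.89 without control 3, -3.32 without NASH vehicle 2 and -0.96 with log2(TPM + 1), where the call was lost (adjusted p = 0.061, with 2.7e-05 to 0.061 over the alternatives). With CDDO-Me it rose by 2.70 ± 0.66 (adjusted p = 0.017), and the call passed in 20 of 24 alternatives with adjusted p from 8.1e-05 to 0.06. It was lost without CDDO-Me 2 (2.15), NASH vehicle 3 (2.58) or NASH vehicle 4 (2.54). Unique reads made up 66.1% of its total and gave -2.51 and 2.67 for the same comparisons.

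Acot8, a peroxisomal thioesterase that also accepts bile acid CoA esters, had small spread in every group. Control livers had 20.6, 24.8, 21.9 and 23.5 CPM. In NASH vehicle Acot8 stood at 17.9, 18.1, 14.3 and 17.1 CPM. With CDDO-Me it stood at 24.1, 30.6, 27.7 and 21.4 CPM. Every CDDO-Me liver exceeded every NASH vehicle liver, and its range overlapped that of control. The rise with CDDO-Me was 0.62 ± 0.12 on the log2 scale (edgeR adjusted p = 0.0032) and was kept in all 24 alternatives, from 0.44 to 0.71. The NASH difference was -0.43 ± 0.12 (adjusted p = 0.0065) with TMM scaling, 0.19 with library totals and 0.27 on the log2(TPM + 1) scale, where it was called higher. CDDO-Me against control gave 0.19 ± 0.12 (adjusted p = 0.19).

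**Figure D4:**
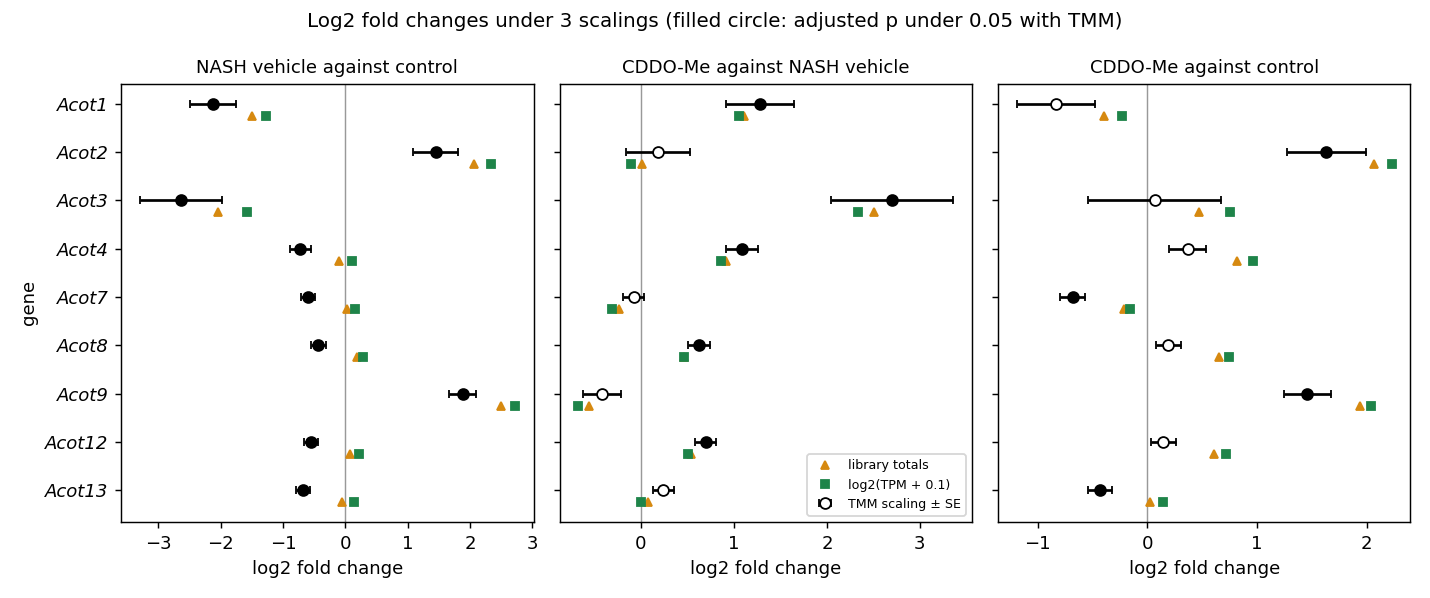
Log2 fold changes (horizontal axis) of the 9 genes in the 3 comparisons; circles are TMM-scaled edgeR values with SE, filled where the adjusted p was under 0.05, triangles are library totals and squares are log2(TPM + 0.1). In NASH vehicle against control both other scalings lie to the right and cross 0 for Acot7, Acot8 and Acot12, and log2(TPM + 0.1) alone crosses 0 for Acot4 and Acot13; in CDDO-Me against NASH vehicle Acot1, Acot3, Acot4, Acot8 and Acot12 lie right of 0 under all 3.

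Set against control, livers given CDDO-Me had 2 members higher (Acot2 and Acot9), 2 lower (Acot7 and Acot13) and 5 that did not pass. Among all tested genes 26.2% were called higher and 23.6% lower, 49.8% in either direction. The CPM ranges of 4 members did not overlap, beside 43.7% of all genes (22.6% higher and 21.1% lower). By TPM the ranges of Acot7 and Acot13 did overlap, while Acot4, Acot8 and Acot12 lay higher without overlap. The median log2 fold change was 0.15 over the 9 and 0.03 over all tested genes. With library totals 5 were called higher and 0 lower, since Acot4, Acot8 and Acot12 then passed at 0.82, 0.65 and 0.61. Under that scaling most genes shifted likewise: 8678 of the 16456 tested genes were called higher and 1125 lower. This comparison shares its control livers with NASH vehicle against control and its treated livers with CDDO-Me against NASH vehicle, so the 3 sets of values are not independent.

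By TPM, which allows levels to be compared between genes, Acot13 was highest and Acot12 next in all 3 groups. In control they stood at 94.3 ± 8.98 and 56.7 ± 5.81 TPM (SD, n = 4). Acot1 followed at 31.1 ± 12.3 and Acot7 at 23.6 ± 6.63, with ranges that overlapped each other. Acot8 had 17.7 ± 1.96 TPM and Acot4 12.1 ± 1.98, each apart from its next neighbour. At the low end Acot2 (5.0 ± 2.76), Acot3 (2.89 ± 2.58) and Acot9 (2.73 ± 1.06) overlapped. In NASH vehicle Acot2 stood at 23.9 ± 6.22 TPM and overlapped Acot7 above and Acot8 below, while Acot1 had dropped to 12.6 ± 4.4, above Acot3 only and overlapping Acot4. With CDDO-Me, Acot12 reached 92.9 ± 4.85 TPM, just under Acot13 at 104 ± 3.54, and the next 5 genes, Acot8, Acot1, Acot4, Acot2 and Acot7, each overlapped their neighbours between 29.7 and 20.7 TPM. The 9 genes summed to 246 ± 38.8 TPM in control, 285 ± 13.3 in NASH vehicle and 336 ± 27.1 with CDDO-Me. These sums are not relative to the bulk of genes, which itself lay higher in both NASH groups on this scale. With log2(TPM + 0.1) the median over all genes was 0.73 in NASH vehicle and 0.55 with CDDO-Me, each against control. With TMM scaling the median of the 9 was -0.60 and 0.15 in the same comparisons.

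**Figure D5:**
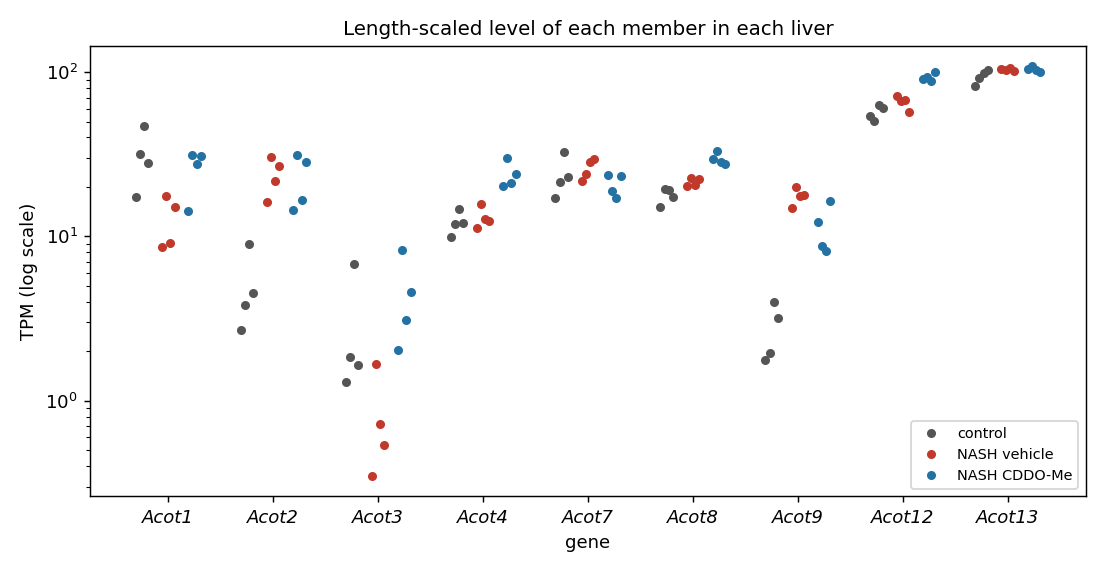
TPM of each gene in each liver on a log axis, with 4 points per group (grey control, red NASH vehicle, blue NASH CDDO-Me). Acot13 and Acot12 lie above the rest in every group, and Acot1 and Acot2 change places between control and NASH vehicle.

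Of 10 other thioesterase genes listed, 6 had enough reads to test. Acot5 and Acot10, relatives of Acot1 and of Acot9, had 5 reads and 1 read over all 12 livers, and Them5 had 14. Acot6, the last gene of the chromosome 12 cluster, had 1.18 ± 0.44, 1.45 ± 0.34 and 0.995 ± 0.425 CPM in control, NASH vehicle and CDDO-Me and passed in no comparison. Baat, which joins bile acids to amino acids and can act as a thioesterase, fell by 1.47 ± 0.14 on the log2 scale in NASH vehicle (adjusted p = 1.2e-06) and gave 0.21 ± 0.13 with CDDO-Me (adjusted p = 0.30). Them4 fell in NASH vehicle by 1.10 ± 0.15 (adjusted p = 2.5e-05) and rose with CDDO-Me by 0.55 ± 0.14 (adjusted p = 0.019), a rise that did not pass with library totals or TPM (adjusted p = 0.026 to 0.21 over 4 scalings). Acot11 gave -0.48 ± 0.19 with CDDO-Me (adjusted p = 0.099). Over the list 1 was higher and 3 lower in NASH vehicle (median -0.31), against 2 and 2 with library totals (median 0.32) and 3 and 2 on both TPM scales. With CDDO-Me 1 was higher and 1 lower, against 0 and 1 with library totals and 0 and 2 on both TPM scales. For this list and those below, the shares over all tested genes with TMM scaling were 29.6% higher and 30.0% lower in NASH vehicle. With CDDO-Me they were 9.39% and 7.24%. With library totals, 9908 of the 16456 tested genes were higher and 1326 lower in NASH vehicle, and 926 and 1589 with CDDO-Me. With log2(TPM + 1) these counts were 11005 and 882, and 805 and 2462.

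Acyl-CoA synthetases, the opposing enzymes, were mostly lower in NASH vehicle with TMM scaling: 14 of 17 tested were lower and 1 higher. The median was -0.94 on the log2 scale (-0.32 with library totals, 9 lower and 3 higher). On TPM the list was closer to balance, with 8 lower and 5 higher with log2(TPM + 1) and 8 and 6 with log2(TPM + 0.1) (median -0.15 in both). Acsl1, the main long-chain synthetase of liver, fell by 2.03 ± 0.18 (edgeR adjusted p = 9.5e-07) and rose with CDDO-Me by 0.68 ± 0.18 (adjusted p = 0.019). Acsl5 fell by 1.15 ± 0.15 in NASH vehicle (adjusted p = 2.7e-05) and gave -0.18 ± 0.15 with CDDO-Me (adjusted p = 0.46). Acsl4, which prefers arachidonic acid, gave 0.03 ± 0.12 in NASH vehicle with TMM scaling (adjusted p = 0.83) and 0.66 with library totals. With CDDO-Me 8 of the 17 were higher and 1 lower, with a median of 0.30, against 8 and 2 with library totals (median 0.14) and 5 and 3 with log2(TPM + 0.1) (median 0.10).

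Of 26 genes listed as PPARalpha and its targets, 16 were lower and 4 higher in NASH vehicle, with a median of -0.52 that turned to 0.10 with library totals (6 lower, 5 higher) and to 0.27 with log2(TPM + 1) (2 lower, 9 higher). With CDDO-Me 11 were higher and 0 lower, with a median of 0.53. That count was 9 with library totals and 5 on both TPM scales, with 0 lower each time and medians of 0.36 and 0.30. Ehhadh, the peroxisomal bifunctional enzyme, rose by 0.99 ± 0.24 on the log2 scale (adjusted p = 0.013), though it did not pass on TPM (0.017 to 0.067 over 4 scalings). Cyp4a14, a fatty acid omega-hydroxylase, rose by 1.68 ± 0.50 (adjusted p = 0.042) and did not pass with library totals or TPM (0.047 to 0.07). Its relative Cyp4a10 gave 0.90 ± 0.33 (adjusted p = 0.080), which did not pass. Cpt1a, the carnitine palmitoyltransferase that lets fatty acids into mitochondria, gave -0.01 ± 0.16 (adjusted p = 0.97), and Ppara itself 0.27 ± 0.24 (adjusted p = 0.50).

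Genes of CoA supply, CoA hydrolysis and acyl-CoA transport were lower in 12 of 18 cases and higher in 2 in NASH vehicle, and higher in 8 and lower in 0 with CDDO-Me (7 and 0 with library totals, 5 and 0 on both TPM scales). The median of the first comparison, -0.75, was -0.12 with library totals and 0.07 with log2(TPM + 1). Nudt7, a peroxisomal CoA diphosphohydrolase, fell by 3.47 ± 0.21 on the log2 scale in NASH vehicle (edgeR adjusted p = 5.3e-08) and gave 0.19 ± 0.20 with CDDO-Me (adjusted p = 0.55). Nudt19, another such enzyme, rose with CDDO-Me by 0.54 ± 0.12 (adjusted p = 0.0098), and did not pass on TPM (0.016 to 0.11 over 4 scalings). Dbi, the acyl-CoA binding protein, fell by 1.42 ± 0.16 in NASH vehicle (adjusted p = 5.4e-06) and gave 0.17 ± 0.15 with CDDO-Me (adjusted p = 0.48). All 13 peroxisome assembly genes were lower in NASH vehicle with TMM scaling, against 3 lower and 1 higher with library totals. The direction turned on TPM, with 1 lower and 2 higher with log2(TPM + 1) (median 0.10) and 1 and 3 with log2(TPM + 0.1) (median 0.11). With CDDO-Me 5 were higher and 0 lower (3 and 0 with library totals and on both TPM scales).

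Of 12 NRF2 targets listed, 10 were higher and 1 lower with CDDO-Me against NASH vehicle, beside 9.39% and 7.24% of all tested genes. The lower one was Hmox1, at -0.94 ± 0.17 on the log2 scale (edgeR adjusted p = 0.0022). Nqo1, a quinone reductase and standard NRF2 target, went from 13.4 ± 1.11 to 124 ± 21 CPM (SD, n = 4), a rise of 3.21 ± 0.13 on the log2 scale (adjusted p = 2.0e-08). It was already higher in NASH vehicle than in control by 1.27 ± 0.13 (edgeR adjusted p = 3.3e-06). Of the cell type marker lists, only the endothelial one had a positive median log2 fold change (0.89) with CDDO-Me against NASH vehicle, where Acot1, Acot3, Acot4, Acot8 and Acot12 rose. The 6 endothelial markers summed to 164 to 178 CPM in control, 71.8 to 139.8 in NASH vehicle and 149.8 to 216 with CDDO-Me, and 4 of them rose with CDDO-Me. Hepatocyte markers gave 1 rise, 0 falls and a median of -0.07 in that comparison. The part of either cell type in the thioesterase values was not tested, and no marker of either list was at 0 in a whole group.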

How the data were processed

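Poly(A) RNA of 12 mouse livers was sequenced with 75 base paired reads, per the labels' protocols. Each deposited table gives whole read counts per gene, of which total gene reads (exon plus intron, as the values show) were used, and TPM values by the authors. The build is GRCm38, per the submitters' processing notes. For aligner, counter and strand, the settings were not given in the sources used here. Genes were kept with edgeR's filterByExpr by group (minimum count 10, minimum total 15), which left 16456 of 41325, and scaled by TMM. The quasi-likelihood test of edgeR 4.0.16 (R 4.3.3) was fitted robustly to all 12 libraries with 1 mean per group and Benjamini-Hochberg adjustment at 0.05, and was tested on simulated data. Fold changes use a prior count of 0.125, and each SE was taken as the size of the fold change (log2) over the root of its F statistic, not as a fitted error. Log2 CPM for correlations use a prior count of 2. Errors on CPM and TPM are SD over 4 livers.

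Alternatives were 12 settings, among them DESeq2 1.42.0, limma 3.58.1 (voom, and trend on log2(TPM + 1) and log2(TPM + 0.1)), library totals, unique reads and a replicate block, and leaving out each of 12 libraries, 24 in all. The labels do not say that replicate numbers pair animals. Deviations of same-numbered livers correlated at -0.22 to 0.19, above 0.1 in 2 of 12 cases. Livers of different numbers were not compared, so processing shared by number was not tested. The members and gene lists were chosen with earlier results of these data known. Named genes are all members, a fixed set of pathway genes (results for some of them are not given), and the 3 genes most like each member by Pearson r. Promoters come from RefSeq (GRCm38.p6), and the table used holds entries for 8 members. Counting 75 base stretches used GENCODE transcripts of GRCm38.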

Additional observations from a re-analysis of the deposited data

Results flagged for a closer look

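Acot3 in control 3 stood at 12.4 CPM, far from the other 3 control livers at 2.69 to 3.83 CPM. The gap to its nearest neighbour was 0.883 of the group's whole range, above Dixon's 95% critical value for 4 samples. Of 27 groups of 4 examined (9 genes in 3 groups) this was the 1 found. Chance alone gives about 1 such flag in every 20 groups examined, so 1 flag among 27 is no more than chance can give. Smooth muscle and cholangiocyte markers were also high in control 3, and their part in the Acot3 value was not tested. Without control 3 the Acot3 log2 fold change in NASH vehicle against control was -1.89 (edgeR adjusted p = 0.011, with 2.7e-05 to 0.061 over its 24 alternatives), and in CDDO-Me against control 0.81 (adjusted p = 0.23, with 0.23 to 0.99 over the alternatives).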

How the results depend on the processing

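Of the 24 alternatives, all kept the NASH calls of Acot1, Acot2 and Acot9, the CDDO-Me rises of Acot4, Acot8 and Acot12, and the calls of Acot2 and Acot9 in CDDO-Me against control. In NASH vehicle against control, 4 members were higher on both TPM scales, and 2 were lower with library totals, 2 with log2(TPM + 0.1) and 1 with log2(TPM + 1), against 2 and 7. Leaving out 1 library gave 2 and 7 each time. The sign turned for Acot7 (0.021), Acot8 (0.194) and Acot12 (0.067) with library totals, and with log2(TPM + 0.1) and log2(TPM + 1) for Acot4 (0.109, 0.101), Acot7 (0.158, 0.151), Acot8 (0.283, 0.27), Acot12 (0.213, 0.21) and Acot13 (0.141, 0.14). In CDDO-Me against NASH vehicle, 4 members were higher with library totals and on both TPM scales, where Acot1 lost its call (adjusted p = 0.052 with totals, 0.057 with log2(TPM + 1) and 0.065 with log2(TPM + 0.1), within 0.0018 to 0.11 over its alternatives), 3 with no filter and 3 to 5 with 1 library left out. Acot2 turned to -0.105 and -0.10 on the 2 TPM scales and to -0.088 without CDDO-Me 2, the lowest of -0.088 to 0.373 over the livers left out. In CDDO-Me against control, library totals and both TPM scales gave 5 higher and 0 lower, and leaving out 1 library gave 2 to 3 higher and 2 to 3 lower. Acot13 turned to 0.025, 0.142 and 0.141 with library totals and the TPM scales. Acot3 turned to -0.494 without CDDO-Me 2 and to -0.169, -0.083 and -0.095 without control 1, 2 and 4, within -0.494 to 0.806 over the livers left out. The cause of these changes was not tested.

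Over all genes, 4874 were higher and 4945 lower in NASH vehicle against control, but 9908 and 1326 with library totals, 11005 and 882 with log2(TPM + 1), and 11132 and 881 with log2(TPM + 0.1). CDDO-Me against control gave 4317 and 3881, but 8678 and 1125, 8943 and 819, and 9307 and 831 under the same settings. CDDO-Me against NASH vehicle gave 1545 and 1191, but 926 and 1589, 805 and 2462, and 743 and 1875. In that comparison DESeq2 gave 1683 and 1853, and leaving out NASH vehicle 4 gave 930 and 639, NASH vehicle 3 959 and 740, NASH vehicle 2 1102 and 767, CDDO-Me 2 937 and 658, and CDDO-Me 3 947 and 617.

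With the replicate block, members higher and lower were 2 and 7, 5 and 0, and 3 and 3 in the 3 comparisons, and CDDO-Me against control then called Acot1 (-0.87, adjusted p = 0.017, with 0.017 to 0.58 over its alternatives) and Acot4 (0.34, adjusted p = 0.042, with 0.00035 to 0.43). It changed no other call of a member. The labels give the numbers no meaning beyond replicate, so the block was not read as a pairing. Acot3, with 14 to 71 reads in NASH vehicle livers, and Acot9, with 60 to 130 in control livers, rest on the fewest reads.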

Other observations

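Reads in introns made up a larger share of Acot7 and Acot8 in disease. For Acot7 the share was 11.9% in control, 17.4% in NASH vehicle and 19% with CDDO-Me, and for Acot8 it was 11.1%, 18.1% and 14.5%. Acot12 had 9.89%, 13.7% and 12.6%. The share over all genes was 3.06% to 4.14% in control libraries and 4.45% to 6.57% in the NASH libraries, so it moved with the same groups, and its part in the gene values was not tested. Acot4 had 2.22%, 2.02% and 1.32%, with no such increase.

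Members differed in how closely they followed each other over the 12 livers, which share libraries, scaling and 3 groups, so the values are descriptions. Acot3 and Acot4 had a Pearson r of 0.927 in log2 CPM, and Acot4 and Acot8 0.942. Acot2 and Acot9, the pair that rose in disease, had 0.856, and Acot9 and Acot13 -0.877. Acot4 was the gene most like Acot3 among 13756 compared, followed by Sox18 (0.919) and Gnas (0.914). Most like Acot4 were Asnsd1 (0.960), Ephx1 (0.955) and Acadl (0.948), and most like Acot8 were Avpi1 (0.982), Rab5if (0.978) and Fam162a (0.958). Acot12 was closest to Fech (0.969), Afg3l2 (0.968) and Fgd5 (0.965), and Acot13 to Ppa2 (0.987), Etfa (0.986) and Atp5g1 (0.986). For Acot1 the closest were Sssca1 (0.959), Hacd1 (0.959) and Serinc1 (0.945), for Acot2 Plpp2 (0.963), Capns1 (0.952) and Aldoa_1 (0.952), and for Acot7 Dhrs3 (0.95), Aggf1 (0.95) and Gm2a (0.945).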
